A study of Mus musculus with 21 samples.

Results

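The cytosines of the mitochondrial 12S and 16S ribosomal RNAs were followed by RNA bisulphite sequencing in back skin of WT and NSun2 -/- mice. Members were every listed position of the mitochondrial chromosome (chrM, mouse build NCBIM37/mm9, plus strand) that fell in the gene mt-Rnr1 (12S, ENSMUSG00000064337.1, chrM:70-1024, 955 nt) or mt-Rnr2 (16S, ENSMUSG00000064339.1, chrM:1094-2675, 1582 nt). The 2 genes hold 492 cytosines, 188 in 12S and 304 in 16S. Of these, 468 were listed with a value in at least 1 library, and 458 were assessed because 3 or more libraries per genotype covered them with 10 or more reads, 176 in 12S and 282 in 16S. Over all RNAs, 122736 cytosines met the same requirement.

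The series compared skin with and without NSun2, an RNA cytosine methyltransferase, in 21 samples, of which the 8 bisulphite libraries are described here. The groups were 4 WT and 4 NSun2 -/- libraries, each from an independent biological replicate of total back skin, taken from males at postnatal day 25, in anagen, the growth phase of the hair cycle. All mice had a C57Bl6/J CBA F1 background. The NSun2 -/- allele was a gene trap from a German Gene Trap Consortium (GGTC) clone, carried in the germline, and the WT mice came from the same breedings. Total RNA was treated with DNase and with Ribo-Zero, a reagent that removes rRNA, before conversion, so the values describe the rRNA that was left.

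The 12S and 16S rRNAs form the core of the small and the large subunit of the mitochondrial ribosome, which translates the proteins encoded by mitochondrial DNA. The 12S decoding region, where codon and anticodon meet, carries a 5-methylcytosine (m5C) made by NSUN4 and an N4-methylcytosine (m4C) made by METTL15. Bisulphite turns cytosine into uracil, which is read as T, while m5C and, in part, m4C resist and are read as C. A cytosine in a folded RNA can escape conversion as well. The percent of unconverted reads therefore measures resistance to bisulphite, and not modification alone.

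The decoding region of 12S was taken as the stretch around the motif GCCCGTC, which was found once in the 12S sequence. The stretch covers chrM:896-925 of the NCBIM37 genome, from which all sequences were read, and its capitals mark the 6 cytosines with a WT mean of at least 20% unconverted reads, C902, C904, C906, C909, C911 and C921 by their position on chrM. The m5C site is C911, nucleotide 842 of 12S, and the m4C site is C909, nucleotide 840.
12S decoding region: tacgcaCaCaCcgCcCgtcaccctcCtcaa

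The 16S stretches with the highest WT values lay within chrM:1585-1614, where capitals mark C1588, C1591, C1598 and C1599, and within chrM:1717-1746, where capitals mark C1726, C1729 and C1731. A further 12S stretch, chrM:509-538, held C516 and C523, marked in capitals. They are shown for comparison with the decoding region.
16S first stretch: aaaCagCttttaaCCattgtaggcctaaaa
16S second stretch: ttatagatgCaaCaCtgttagtatgagtaa
12S stretch apart from the decoding region: tgcttagCcataaaCctaaataattaaatt

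Nsun2 cytosines, a check of the labels, were listed at 31, 23, 48 and 43 positions in WT replicates 1 to 4 and at 0 in each NSun2 -/- library. Libraries differed in their level of unconverted reads. The median percent of unconverted reads over the assessed rRNA cytosines was 4.55, 5.31, 2.26 and 11.1 in WT replicates 1 to 4, and 15.4, 35.5, 1.78 and 10.1 in NSun2 -/- replicates 1 to 4. NSun2 -/- replicate 2 stood apart from the rest, and NSun2 -/- replicate 3 had the lowest value of all. The median depth of the rRNA cytosines was between 117 reads in NSun2 -/- replicate 2 and 607 in NSun2 -/- replicate 4.

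C911, the m5C site, was the most unconverted rRNA cytosine and stayed unconverted without NSun2. Its percent of unconverted reads was 62.9, 73.3, 80.2 and 84.6 in WT replicates 1 to 4, and 79.2, 51.6 and 81.2 in NSun2 -/- replicates 1, 3 and 4. The genotypes overlapped, the lowest value was from NSun2 -/- replicate 3, and NSun2 -/- replicate 2 did not list the site. The means were 75.3% ± 9.48 (SD, n = 4) in WT and 70.7% ± 16.5 (SD, n = 3) without NSun2. The difference of -4.59 percentage points was smaller than the spread between replicates (p = 0.629, exact two-sided permutation test). Without NSun2 -/- replicate 3 the difference turned to 4.93 points.

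The depth at C911 was modest and set the precision of each value. WT replicate 4 had 11 unconverted of 13 reads, with an exact 95% interval from 54.6% to 98.1%. WT replicate 3 had 81 of 101 reads (71.1% to 87.5%), NSun2 -/- replicate 3 had 32 of 62 (38.6% to 64.5%), and NSun2 -/- replicate 4 had 108 of 133 (73.5% to 87.5%). The interval of NSun2 -/- replicate 3 lay below those of WT replicate 3 and NSun2 -/- replicate 4. All intervals here cover counting error only.

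C909, the m4C site, was the next cytosine in rank in the WT mean. It was unconverted in 55.0, 62.5, 58.8 and 65.0% of reads in WT replicates 1 to 4 and in 42.4, 63.6, 57.1 and 46.5% in NSun2 -/- replicates 1 to 4. The WT libraries were close to each other, and the NSun2 -/- libraries reached both into their range and below it. The means were 60.3% ± 4.37 (SD, n = 4) and 52.4% ± 9.72 (SD, n = 4), a difference of -7.91 points (exact two-sided permutation test, p = 0.229). In size it was above the SD of the WT libraries and below that of the NSun2 -/- libraries. NSun2 -/- replicate 2 rested on 7 of 11 reads, and NSun2 -/- replicate 4 on 72 of 155 reads with an exact 95% interval from 38.4% to 54.6%.

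**Figure D1:**
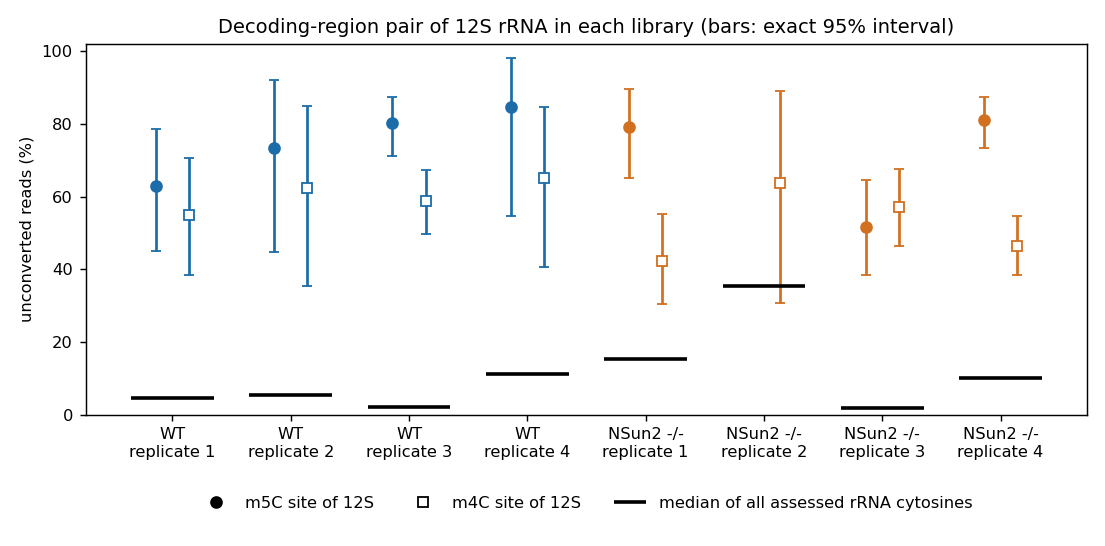
Percent of unconverted reads at the m5C site (filled circles) and the m4C site (open squares) of 12S in each library, with exact 95% intervals, and the median of all assessed rRNA cytosines of that library (black line). Both sites lay above the line in every library that listed them, at 42.4% or more, in WT (blue) and NSun2 -/- (orange) libraries.

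Both sites stood above the level of their own library in either genotype. C911 exceeded the library median by 49.8 to 77.9 points in 7 of 7 libraries (mean 66.1, exact two-sided sign-flip permutation test, p = 0.0156, the smallest that 7 libraries can give). C909 exceeded it by 27.1 to 57.2 points in 8 of 8 libraries (mean 45.6, the same exact permutation test, p = 0.0078, the smallest that 8 can give). They were the only assessed rRNA cytosines that exceeded the median by at least 20 points in every library that listed them. C911 ranked at the top of both rRNAs in 6 of 7 libraries and in place 3 in NSun2 -/- replicate 3, in which C909 ranked at the top. Above the library median, C909 was at 54.5 ± 3.06 points in WT and 36.7 ± 13.1 points in NSun2 -/- libraries (SD, n = 4 each). The difference was -17.8 points (exact two-sided permutation test, p = 0.0857, where 0.0286 is the smallest p of 4 against 4 libraries). The subtracted medians averaged 5.81% in WT and 15.7% in NSun2 -/- libraries, so part of this difference is that of the library levels. Without subtraction it was -7.91 points (the same exact permutation test, p = 0.229).

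The cytosine between them, C910, was less unconverted. It showed 27.9, 12.5, 13.5 and 11.1% in WT replicates 1 to 4 and 47.1, 50.0, 29.6 and 22.8% in NSun2 -/- replicates 1 to 4. C907, just upstream of the motif, was at 0 to 11.9% in all 8 libraries, also in those in which its neighbours were high. In NSun2 -/- replicate 2 it was at 9.09%, or 1 of 11 reads, under the library median of 35.5%. C910 and C907 were chosen after their values were seen, as the neighbours of the pair.

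Beside the pair, the 4 other cytosines with a WT mean of at least 20%, C902, C904, C906 and C921, had an NSun2 -/- mean of at least 20% too. C902 was at 25.0, 35, 23.1 and 35.1% in WT replicates 1 to 4 and at 31.2, 35.7, 53.3 and 23.2% in NSun2 -/- replicates 1 to 4. C906 was at 23.9, 25.0, 30.2 and 37.5% in WT and at 42.4, 23.1, 50.5 and 21.3% in NSun2 -/- replicates 1 to 4. At both, the genotypes overlapped, and NSun2 -/- replicate 3 gave the highest value although its rRNA median was the lowest. C904 was at 17.5 to 44.4% in WT and 21.6 to 45.2% in NSun2 -/- libraries, and C921 at 12.7 to 58.3% and 22.4 to 48.8% in the 3 libraries of each genotype that listed it.

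In NSun2 -/- replicate 3, the library with the lowest level of unconverted reads, 15 of the 458 assessed rRNA cytosines had at least 20%. Of these, 14 lay in 12S between C898 and C921, a stretch of 24 nt with 15 assessed cytosines in which C907 was the exception. The other 161 assessed cytosines of 12S reached at most 13.5% in that library. The fifteenth was C1599 of 16S, with 4 of 12 reads. In this library the decoding region formed a block of unconverted cytosines against a low level elsewhere, wider than the pair alone, with 40 to 144 reads at each of the 14 cytosines. WT replicate 3, with a median of 2.26%, did not show the whole block. Of the 15 assessed cytosines of the stretch, which had 67 to 159 reads each there, only C902, C906, C909 and C911 had at least 20%.

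Leaving out the pair, the listed ones of the 13 assessed cytosines within 15 bases of C911 had a mean of 15.4, 16.8, 12.3 and 30.0% in WT replicates 1 to 4, and of 33.9, 31.4, 33.2 and 18.1% in NSun2 -/- replicates 1 to 4. NSun2 -/- replicates 1, 2 and 3 lay above all WT libraries and replicate 4 lay among them. The means were 18.6% ± 7.84 and 29.2% ± 7.45 (SD, n = 4 each), a difference not past 0.05 (p = 0.0571 in an exact two-sided permutation test). These means rest on different cytosines, since WT replicates 2 and 4 listed 11 each and NSun2 -/- replicate 2 listed 7, none past C910. Over the 7 cytosines listed in all 8 libraries, a set added after the values were seen, the means were 19.6% ± 5.44 and 28.6% ± 7.16 (SD, n = 4 each; p = 0.114, the same exact test). NSun2 -/- replicates 1 and 2 were also higher over all rRNA cytosines, whereas the median over both rRNAs was 1.78% in replicate 3.

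**Figure D2:**
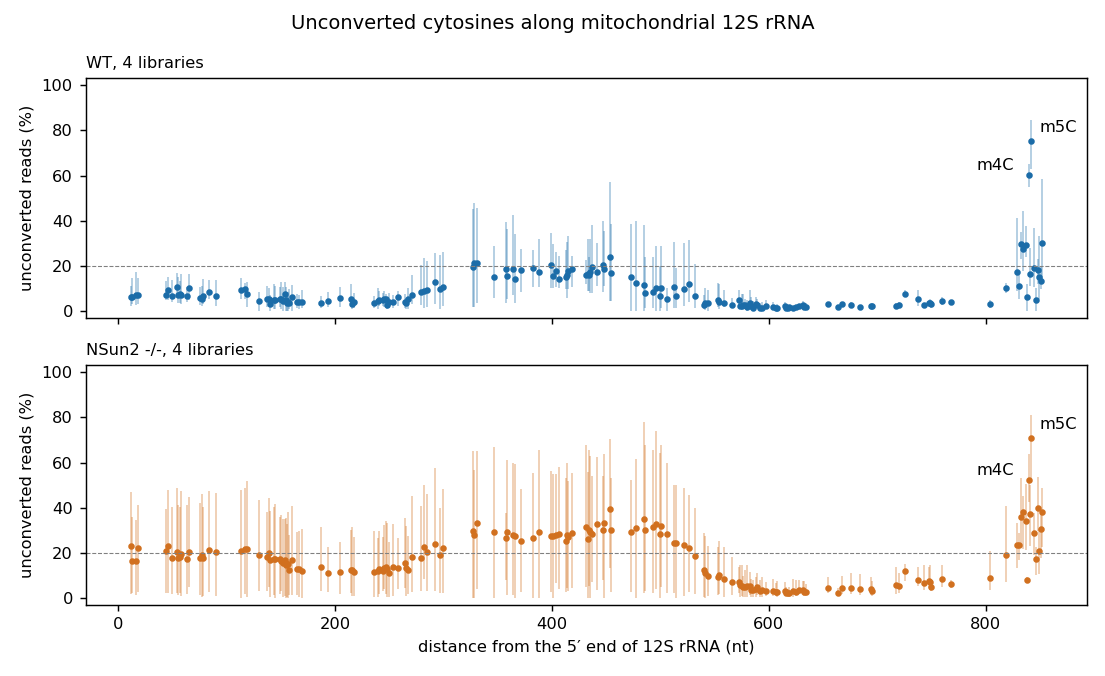
Percent of unconverted reads at each assessed 12S cytosine against its distance from the 5′ end of 12S, in WT (top) and NSun2 -/- libraries (bottom); points are means and lines span the lowest to the highest library, and the dashed line marks 20%. The pair labelled m5C and m4C had the highest means in both genotypes, and the NSun2 -/- libraries spread more widely over the rest of 12S.

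Of the 458 assessed rRNA cytosines, 38 had a WT mean of at least 20%, the level taken here as unconverted in WT. They fell into 11 of 12S and 27 of 16S, the latter all between C1539 and C1819. Without WT replicate 4 the number was 12, 5 of 12S and 7 of 16S. With at least 30 reads per library it was 5, so that it rested largely on that library and on shallow cytosines. Those 5 were C433, C902, C1539, C1553 and C1747, of which C433 was not one of the 38. The pair was not among them, since too few WT libraries covered it at that depth. All 38 had an NSun2 -/- mean of at least 20% as well, so that none changed by this measure, although C397 and C468 fell under 20% when NSun2 -/- replicate 2 was left out. The mean was higher in NSun2 -/- libraries at 36 of them and lower at the pair, C909 and C911. This is a description without a test, since WT values chose the sites and the NSun2 -/- mean was higher at nearly all rRNA cytosines. Just inside the limit were C516 (20.2%), C468 (20.4%) and C1774 (20.6%), and just outside it C1828 (19.7%), C506 (19.5%) and C1793 (19.4%).

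How firmly these 38 were unconverted depended on the library, and the 3 locations differed in this. The 6 cytosines of the decoding region averaged 34.0, 45.0, 37.1 and 54.2% in WT replicates 1 to 4, and 48.0, 41.0, 50.2 and 36.0% in NSun2 -/- replicates 1 to 4. WT replicate 2 listed 5 and NSun2 -/- replicate 2 listed 4 of the 6, and the means are over those listed. These means were not ordered as the library medians were. The pair carried part of them, and the 4 cytosines without the pair averaged from 20.9% in WT replicate 3 to 48.1% in NSun2 -/- replicate 3. In NSun2 -/- replicate 3 all 6 had at least 20%. The 5 other 12S cytosines, C397, C400, C468, C516 and C523, averaged 12.4, 17.7, 10.4 and 45.0% in WT, and 34.6, 60.5, 5.61 and 26.0% in NSun2 -/- replicates 1 to 4. In NSun2 -/- replicate 3 none of these 5 had 20%, and in WT replicate 3 only 1 had. This division by location was made after the values were seen and was not tested.

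The mean of the 27 cytosines of 16S was lowest in the libraries with the lowest level as well. They averaged 21.5, 23.8, 12.1 and 47.5% in WT replicates 1 to 4 and 52.7, 62.4, 4.12 and 37.6% in NSun2 -/- replicates 1 to 4. Only 1 of 27 had at least 20% in NSun2 -/- replicate 3, and 4 of 27 in WT replicate 3, the libraries with the lowest levels in each genotype. In NSun2 -/- replicates 1 and 4, all 27 had. The 38 cytosines also had fewer reads than the rest, a median of 48 against 291.5, and the part of depth in their values was not tested.

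**Figure D3:**
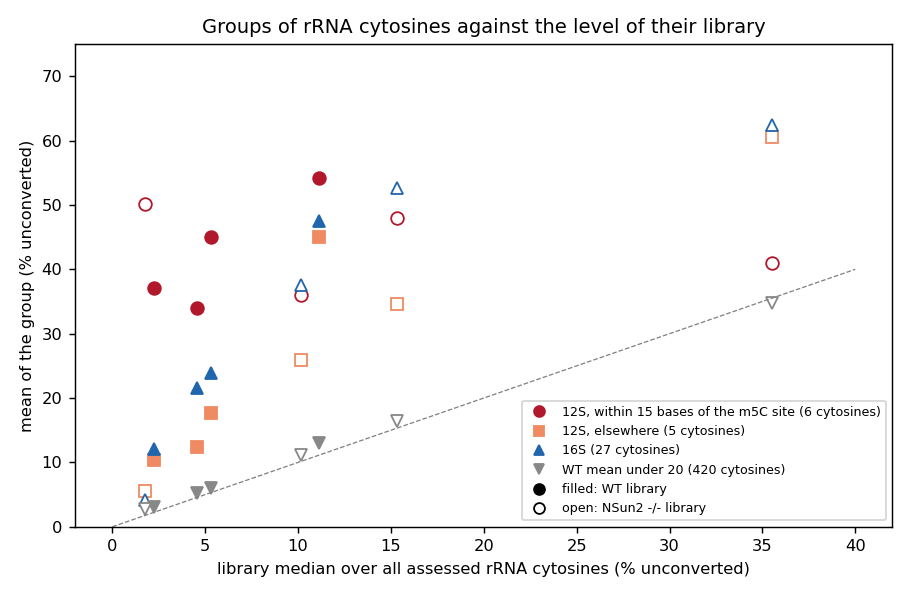
Mean percent of unconverted reads of 4 groups of rRNA cytosines in each library (vertical axis) against that library's median over all assessed rRNA cytosines (horizontal axis); filled symbols are WT and open symbols NSun2 -/- libraries, and the dashed line marks equality. The mean of the 6 decoding-region cytosines, which include the pair, was 34.0% to 54.2%, and 20.9% to 48.1% without the pair, while that of the 16S cytosines went from 4.12% to 62.4%.

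C1599 had the highest WT mean in 16S. It was at 35.3, 20.0 and 72.7% in WT replicates 1, 3 and 4, and at 65.2, 33.3 and 44.1% in NSun2 -/- replicates 1, 3 and 4, with 11 to 34 reads and no listing in replicate 2 of either genotype. It was the only 16S cytosine with at least 20% in every library that listed it, beside C902, C906, C909 and C911 in 12S. C1731, in contrast, was at 19.2 to 60.0% in WT, at 57.1 to 74.4% in 3 NSun2 -/- libraries, and at 0 of 27 reads in NSun2 -/- replicate 3. C1726 showed the same order, with 24.0 to 50.0% in the 3 WT libraries that listed it, 42.9 to 68.8% in 3 NSun2 -/- libraries and 0 of 25 reads in replicate 3.

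The other 16S cytosines with the highest WT means were C1747, C1715, C1598, C1709, C1591, C1784 and C1755, with WT means between 25.2% and 29.8%. Each had at most 8.70% in NSun2 -/- replicate 3 and at least 50.0% in another NSun2 -/- library. The genotypes therefore overlapped at all 7.

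**Figure D4:**
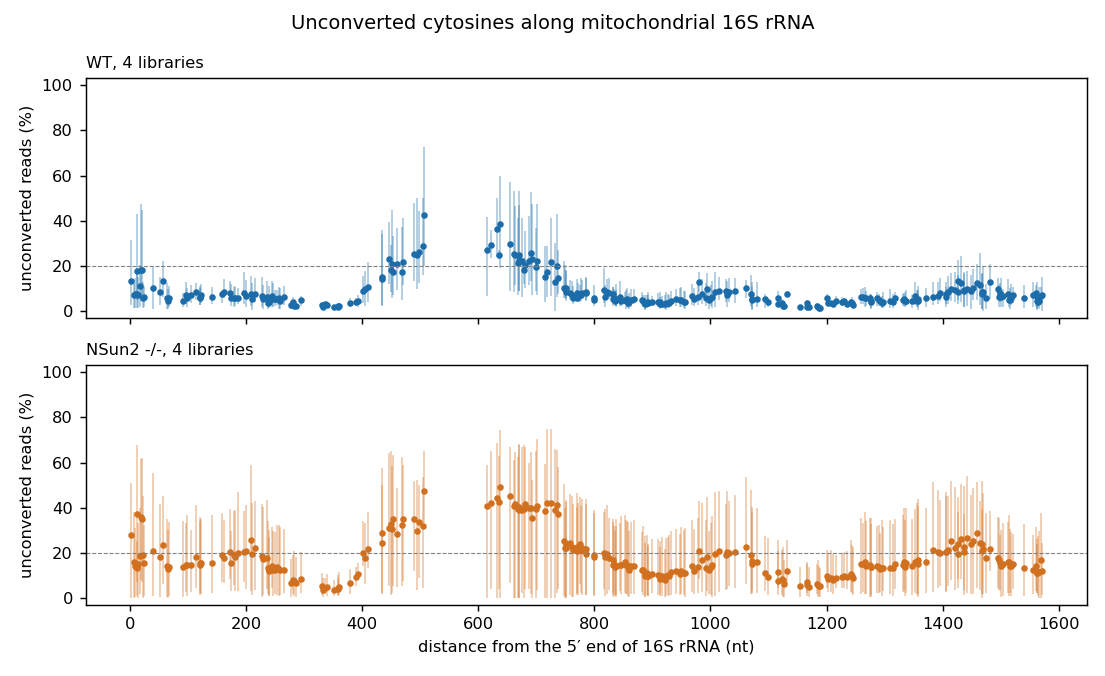
Percent of unconverted reads at each assessed 16S cytosine against its distance from the 5′ end of 16S, in WT (top) and NSun2 -/- libraries (bottom); points are means, lines span the lowest to the highest library, and the dashed line marks 20%. The 27 cytosines with a WT mean of at least 20% lay in the second of 4 equal stretches, on both sides of a gap without listed cytosines.

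Part of that stretch had no listed cytosines, and the reason was not tested. None of the 22 cytosines of 16S between C1608 and C1692, a span of 85 nt, was listed in any library, and the 2 flanking listed cytosines were C1599 and C1709. In 12S, C942 and C1002 were not listed. The 10 listed cytosines from C923 to C1014 were not assessed, because fewer than 3 libraries of a genotype listed them. Where listed, they had 10 to 85 reads and 0 to 51.3% unconverted. The 3′ end of 12S beyond C921 is therefore not described.

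By location, the second of the 4 equal stretches had the highest mean in 16S and the fourth, with the decoding region, in the WT mean of 12S. The second stretch of 16S had 18.2% ± 10.5 in WT and 33.0% ± 22.2 in NSun2 -/- libraries (SD, n = 4 each), with a median of 75.5 reads. The other 3 stretches of 16S had 5.204 to 6.32% in WT and 13.2 to 15.8% in NSun2 -/- libraries, with median depths between 340 and 726 reads. The fourth stretch of 12S had 15.7% ± 3.93 in WT and 21.4% ± 4.04 in NSun2 -/- libraries (SD, n = 4 each; p = 0.0571 by exact two-sided permutation), and the second 13.3% ± 8.60 and 24.0% ± 19.5. In the fourth, NSun2 -/- replicate 2 listed 20 of 27 cytosines, none past C910, and over these 20 in all libraries the means were 12.5% ± 2.26 and 17.6% ± 4.97 (SD, n = 4 each; p = 0.114, the same exact test). Within libraries, Spearman's rho between percent and reads was -0.28 to -0.90 over the cytosines of 12S and -0.03 to -0.83 over those of 16S, so shallow cytosines tended to be the unconverted ones.

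The base after the cytosine made little difference to these means. In 12S, WT means were 7.74 to 11.1% and NSun2 -/- means 17.0 to 18.4% over the 4 following bases. In 16S, they were 7.22 to 9.92% in WT and 16.8 to 20.5% in NSun2 -/- libraries. The spread over libraries of one genotype was larger than these ranges.

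The cytosines with the most reads were close to full conversion. C745 in 12S, with 192 to 1933 reads, was at 1.92, 2.62, 2.07 and 3.94% in WT replicates 1 to 4 and at 2.94, 10.9, 1.81 and 2.37% in NSun2 -/- replicates 1 to 4. C2262 in 16S, with 468 to 3881 reads, was at 1.32, 1.63, 0.889 and 2.56% in WT and at 3.78, 13.7, 0.463 and 2.11% in NSun2 -/- replicates 1 to 4. At both, NSun2 -/- replicate 2 alone exceeded 10%.

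No rRNA cytosine was called as different between the genotypes. A call needed an edgeR quasi-likelihood test with a Benjamini-Hochberg adjusted p under 0.05 over all 122736 cytosines, and means at least 10 points apart. By this rule, 0.147% of all cytosines were called lower and 0.114% higher in NSun2 -/- skin. Of the 458 rRNA cytosines, 0 were called lower and 0 higher by edgeR, as by limma, and the smallest adjusted p in edgeR was 1. At an unadjusted p under 0.05, edgeR gave 0 lower in either rRNA, 23 of 176 higher in 12S and 36 of 282 higher in 16S, where 0.693% of all cytosines were lower and 2.17% higher at that limit. The rRNA cytosines had medians of 117 to 607 reads per library against 16 to 17 over all listed cytosines, and the part of depth was not tested. A missing call does not show that a cytosine was equal in both genotypes.

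When NSun2 -/- replicate 3 was left out, 14 rRNA cytosines were called higher, 9 in 12S between C209 and C609 and 5 in 16S between C1304 and C1892. None of these lay in the decoding region. They were 3.12% of the rRNA cytosines tested, against 0.635% of all 82884 cytosines tested without that library. At an unadjusted p under 0.05 in edgeR, 349 of 449 rRNA cytosines were higher in this setting. The share of all cytosines at that limit is not given here. The NSun2 -/- libraries that remained had rRNA medians of 15.4, 35.5 and 10.1%, against 2.26 to 11.1% in WT.

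The direction of the group means was uniform over the rRNAs. The mean was higher in NSun2 -/- libraries at 456 of 458 cytosines, all but the pair, with a median difference of 9.33 points. It was also higher at 174 of 201 cytosines of mitochondrial mRNAs and 66 of 84 of mitochondrial tRNAs. The share over all assessed cytosines is not given here. The rRNA medians of NSun2 -/- replicates 1 and 2, 15.4 and 35.5%, lay above all WT medians, that of replicate 4 among them and that of replicate 3, 1.78%, below them. Yet the libraries of the genotypes did not overlap at 5 of 458 (1.09%), all higher in NSun2 -/- libraries, where 3.49% of all assessed cytosines did so in that direction and 0.725% in the other. These 5 were C812, C900, C916 and C917 in 12S and C1486 in 16S. Those in the decoding region were the larger differences, C917 at 18.3% in WT and 39.8% in NSun2 -/- libraries (3 libraries each), C916 at 4.66% and 17.1%, and C900 at 11% and 23.5%. The margins were narrow and shallow. At C916, not listed in NSun2 -/- replicate 2, WT replicate 4 had 1 of 10 reads (10%) and NSun2 -/- replicate 4 had 10 of 99 (10.1%). At C900, WT replicate 2 had 3 of 19 reads (15.8%) and NSun2 -/- replicate 4 had 33 of 195 (16.9%).

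**Figure D5:**
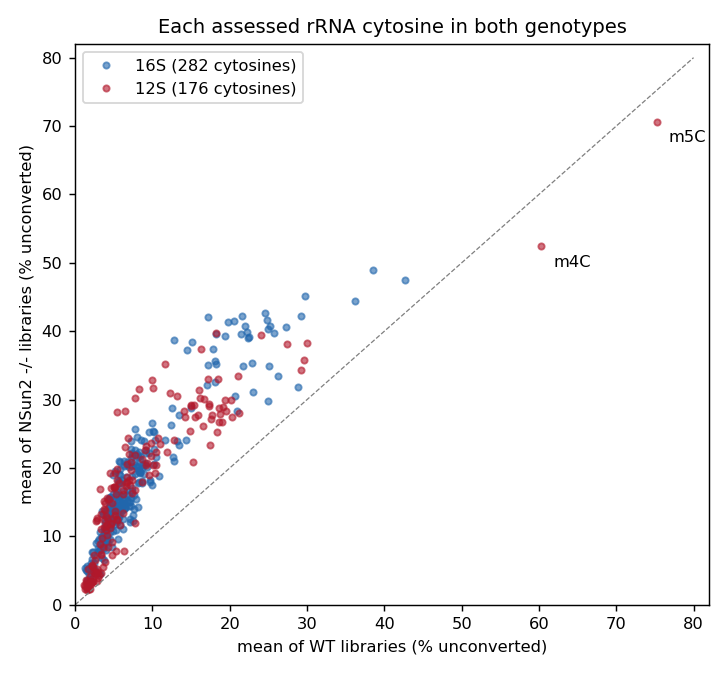
Mean percent of unconverted reads of each assessed rRNA cytosine in the WT libraries (horizontal axis) and in the NSun2 -/- libraries (vertical axis), with 12S in red and 16S in blue; the dashed line marks equality. Of 458 cytosines, 456 lay above the line, and the pair labelled m5C and m4C lay below it.

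The mean over each rRNA differed by less than the spread of the NSun2 -/- libraries, though by more than that of the WT libraries. The 12S mean was 6.87, 6.72, 5.24 and 16.6% in WT replicates 1 to 4 and 18.1, 35.05, 5.03 and 12.6% in NSun2 -/- replicates 1 to 4. The means of 8.86% ± 5.23 and 17.7% ± 12.7 (SD, n = 4 each) differed by 8.84 points (p = 0.314 in an exact two-sided permutation test), and by 3.06 points without NSun2 -/- replicate 2. The 16S mean was 8.32% ± 4.88 in WT and 18.3% ± 14.7 in NSun2 -/- libraries (SD, n = 4 each), a difference of 10.01 points (the same exact permutation test, p = 0.286), and of 3.60 points without NSun2 -/- replicate 2. Between the libraries of lowest level, WT replicate 3 and NSun2 -/- replicate 3, 12S was at 5.24 and 5.03% and 16S at 3.51 and 2.55%. Across cytosines, WT and NSun2 -/- means went together, with Pearson's r of 0.86 over 176 cytosines of 12S and 0.92 over 282 of 16S, which share libraries and are not independent.

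Compared within the same libraries, 12S and 16S were -0.04 points apart on average (exact two-sided sign-flip permutation test over 8 libraries, p = 0.969). With at least 30 reads per cytosine, 12S was lower (-1.84 points, p = 0.0469, the same exact test). Both rRNAs together were 1.81 points above the 201 assessed cytosines of mitochondrial mRNAs (p = 0.188, the same exact test). That difference was 5.08 points with 30 reads, 0.565 points without NSun2 -/- replicate 1, and 4.61 points between medians, where it passed 0.05 (p = 0.0156, the same exact test). The rRNAs differed from the 84 of mitochondrial tRNAs by -7.05 points and were lower in 7 of 8 libraries (p = 0.0156, the same exact test). The latter difference did not pass 0.05 when cytosines with at least 30 reads were used (-3.59 points), or when WT replicate 1 (-3.55), WT replicate 3 (-3.46), WT replicate 4 (-3.93) or NSun2 -/- replicate 4 (-6.43) was left out. Leaving out a library also changed the cytosines compared, since 3 libraries of each genotype were still required. With all 8 libraries kept and all 4 of each genotype required, the difference was -4.20 points (p = 0.133, the same exact test). Mitochondrial tRNAs, some of which NSun2 is known to methylate, had 3 cytosines called lower among 84 in edgeR and 2 in limma. Mitochondrial mRNAs had 0 of 201 in either. Over all cytosines, 0.147% were called lower in edgeR.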

How the data were processed

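RNA bisulphite sequencing was done on 8 libraries, 4 per genotype. Reads were aligned with Bismark (0.7.6 per the submitters' processing notes) by the authors, who deposited, per cytosine, counts of unconverted and converted reads, not normalized. The authors also deposited the percent of unconverted reads, with at least 10 reads at each listed cytosine. The study's methods name GRCm38 and the notes mm9 too; listed mitochondrial positions, after adding 1, fell on cytosines of NCBIM37, which was used with its annotation. The study's methods describe discarding reads in which many cytosines stayed unconverted; whether that was done before these counts were made is not given.

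Percents were computed from the counts. A cytosine was assessed if 3 or more libraries per genotype had 10 or more reads there. Genotypes were compared by exact permutation, two-sided, of library values over 70 assignments (4 against 4; fewer where a library did not list a site or was left out), or with sign flips within libraries. Cytosines were tested with edgeR 4.0.16 (quasi-likelihood, both counts modelled, R 4.3.3) and limma 3.58.1 (log2 ratios, pseudocount 1), fitted over all 122736 cytosines, and with Python 3.11.15, pandas 2.3.3, numpy 2.4.6 and scipy 1.17.1; intervals are exact binomial at 95%. In the self-test, edgeR recovered 61% and 98% of 100 cytosines changed by 2 and by 4 in log odds among 13824, with 0 false calls. The simulated libraries had no differences in their level of unconverted reads, unlike the real ones. The changed cytosines were of intermediate percent and had at least 10 reads in every library. These rates are therefore not known to hold for the rRNA cytosines. PCR reads without molecular identifiers are not independent molecules, so intervals cover counting error only.

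Named cytosines were the m5C and m4C sites, the 10 highest WT means and the deepest cytosine of each rRNA, and up to 5 calls per direction. The members, lists and tests were chosen with earlier results of these data known. Alternatives covered depth, pooling, medians, the level of the library, the WT limit, limma, a replicate block, each library left out and, added after the values were seen, the cytosines listed in all libraries. With a library left out, 3 libraries of each genotype were still required, so the set of assessed cytosines could change too. tRNA sequencing and Pol III libraries were not used here.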

Additional observations from a re-analysis of the deposited data

Results flagged for a closer look

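In 76 groups of 4 libraries, 8 held a library far from the other 3 by Dixon's test, where chance gives 1 in 20, or 3.8. Of these, 5 were WT replicate 4, whose 12S mean of 16.6%, second-stretch mean of 26.1%, third-stretch mean of 10.2%, mean before C of 15.9% and mean before T of 16.8% in 12S all lay above the other WT libraries; these values share cytosines. NSun2 -/- replicate 2 stood apart at C745 with 10.9%. NSun2 -/- replicate 4 stood below the other 3 at C904, with 21.6%, and in the mean of the 13 cytosines beside the decoding-region pair, with 18.1%.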

How the results depend on the processing

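The m4C site, the mean of 16S and the count of 0 rRNA cytosines called lower kept their direction and side of the threshold under every alternative run, but above the library median the 16S difference was 0.126 in place of 10.01 points. At the m5C site, leaving out 1 library gave differences from -9.86 to 4.93 points, the latter without NSun2 -/- replicate 3. Taken above the library median, the 12S difference was -1.05 in place of 8.84 points. The difference of 12S and 16S was -1.84 points with 30 reads (exact sign-flip permutation test, p = 0.0469), 0.137 between medians, and -0.837 to 0.316 with 1 library left out. Between medians, the rRNAs were 4.61 points above mitochondrial mRNAs (the same exact test, p = 0.0156). Against mitochondrial tRNAs the difference was -3.59 points with 30 reads, -4.20 with all 4 libraries of each genotype required, -4.06 with reads pooled, -0.256 between medians, none of them past 0.05, and -8.50 to -3.46 with 1 library left out. Leaving out 1 library could also change which cytosines were assessed. It gave 0 to 14 rRNA cytosines called higher. Of 38 cytosines unconverted in WT, 38 of which stayed, the numbers became 110 and 110 at a limit of 10%, and 2 and 2 (the pair) at 50%. They were 15 and 13 above the library median, where C906 and C1591 fell under the limit in NSun2 -/- libraries. With 30 reads they were 5 and 5, without the pair, which too few WT libraries covered at that depth. Leaving out 1 library gave 12 to 48 cytosines, with 12 to 48 staying; the 12 were without WT replicate 4, and without NSun2 -/- replicate 2 there were 38, of which 36 stayed. With a replicate block, differences were -5.23 points at the m5C site (p = 0.75), -7.91 at the m4C site (p = 0.25), 8.84 for 12S and 10.01 for 16S (both p = 0.5, exact permutation within pairs), with 0 rRNA calls, and it changed no call. Same-numbered libraries deviated with correlations of -0.32, -0.36, 0.72 and -0.13 over 445 cytosines, and pairs of different number with -0.76 to 0.64. These values cannot tell whether same-numbered libraries shared more than a number. Except where stated, causes were not tested. Depth at the decoding-region pair, 11 to 155 reads, limits what can be seen there.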
